A study of Mus musculus with 62 samples.

Results

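Haemoglobin and erythroid transcripts were followed in whole-heart RNA of mice injected with melanoma cells or mock injected. The 7 genes, Hba-a1, Hba-a2, Hbb-bs, Hbb-bt, Alas2, Bpgm and Slc4a1, were taken by symbol from the 47643 gene symbols of the deposited expression table. Of those symbols, 24270 were at 0 in all 62 libraries of the series. 6 of the 7 passed the filter on low values and entered the tests, and Slc4a1 did not pass. The mice were female and labelled as 2 months old, and hearts were taken 2, 4, 6 and 8 weeks after injection. The 3 arms were mice that received cachectic melanoma cells (CAC), mice that received non-cachectic melanoma cells (NCAC) and mock-injected mice (Con). CAC and NCAC mice therefore differed in the melanoma cells they carried, not in a treatment given to 1 tumour. The study text calls the mice athymic nude, whereas the strain label of every sample is C57BL6/J. Each arm and week had 5 libraries, except CAC week 8 with 7 and Con week 4 with 4 after 1 library was left out, which gave 61 of 62 libraries in 12 groups. The labels call the libraries biological replicates.

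Haemoglobin is built from alpha-globin and beta-globin chains, each of which holds a haem group with an iron atom. Alas2 is the erythroid form of the first enzyme of haem synthesis, Bpgm makes the phosphate ester that lowers the oxygen affinity of haemoglobin, and Slc4a1 is the anion exchanger of the red cell membrane. Circulating reticulocytes have lost the nucleus but still hold globin mRNA, so RNA of a tissue that contains blood holds globin transcripts. In bulk tissue RNA, fewer cells of a type and less RNA per cell cannot be told apart.

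In mm10 the alpha-globin genes Hba-a1 (ENSMUSG00000069919.7, chr11:32283511-32284465) and Hba-a2 (ENSMUSG00000069917.7, chr11:32296489-32297298) lie on the plus strand. The adult beta-globin genes Hbb-bs (ENSMUSG00000052305.6, chr7:103826534-103828096) and Hbb-bt (ENSMUSG00000073940.3, chr7:103812524-103813996) lie on the minus strand. Alas2 (ENSMUSG00000025270.13) is at chrX:150547375-150570638 on the plus strand, Bpgm (ENSMUSG00000038871.5) at chr6:34476207-34505613 on the plus strand and Slc4a1 (ENSMUSG00000006574.15) at chr11:102348824-102366203 on the minus strand. Within each globin pair the coding sequences are near-identical copies, at 99.8% identity for Hba-a1 and Hba-a2 over 429 bases and at 99.8% for Hbb-bs and Hbb-bt over 444 bases, so the authors' counting could have split reads between the copies. The only coding difference of the alpha pair is C381T and that of the beta pair is C417T, counted from 1 at the first coding base, with the first-named gene as the reference. Neither changes the encoded amino acid. The stretches of coding sequence in exon 3 around these positions are shown because each pair can be told apart within the coding sequence only there. They are written on the gene's strand from mm10 with the GENCODE M21 annotation, and the capital marks the differing base. The positions are chr11:32284313-32284373, chr11:32297130-32297190, chr7:103826665-103826722 and chr7:103812656-103812713, in the order printed.
Hba-a1: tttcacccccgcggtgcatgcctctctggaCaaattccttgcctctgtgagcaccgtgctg
Hba-a2: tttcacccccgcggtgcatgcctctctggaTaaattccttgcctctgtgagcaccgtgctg
Hbb-bs: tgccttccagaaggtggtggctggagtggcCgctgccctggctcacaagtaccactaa
Hbb-bt: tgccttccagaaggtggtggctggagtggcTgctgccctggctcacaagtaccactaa

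The 110 bases before the RefSeq start of Hba-a1, Hbb-bs, Hbb-bt and Alas2 are shown because these genes moved together over the libraries. A RefSeq window (build GRCm38.p6) was matched for 6 of the 7 genes. Capitals mark matches on either strand to CACCC (associated with KLF factors), GATAA (GATA factors), CCAAT (the CCAAT-binding complex) or TATAA (the TATA box). Among all 32851 windows of this length, 29.6% held CACCC, 9.4% held GATAA, 20.2% held CCAAT and 10.9% held TATAA. The windows are chr11:32283562-32283671 on the plus strand, chr7:103827929-103828038 on the minus strand, chr7:103813924-103814033 on the minus strand and chrX:150547307-150547416 on the plus strand, in the order printed.
Hba-a1: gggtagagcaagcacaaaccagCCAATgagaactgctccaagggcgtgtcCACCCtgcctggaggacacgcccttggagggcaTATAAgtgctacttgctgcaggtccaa
Hbb-bs: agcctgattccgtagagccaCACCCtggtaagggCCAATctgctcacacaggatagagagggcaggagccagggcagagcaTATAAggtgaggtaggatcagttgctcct
Hbb-bt: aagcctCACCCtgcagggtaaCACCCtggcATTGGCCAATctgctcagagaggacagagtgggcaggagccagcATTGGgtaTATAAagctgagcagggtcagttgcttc
Alas2: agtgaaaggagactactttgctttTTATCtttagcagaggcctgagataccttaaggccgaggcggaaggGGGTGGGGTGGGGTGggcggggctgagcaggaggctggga

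TATAA began 27 bases before the start in Hba-a1, 29 in Hbb-bs and 28 in Hbb-bt, and these 3 globin windows each held CCAAT and CACCC upstream of it. The Alas2 window held no TATAA and no CCAAT but had GATAA on the other strand at 86 bases and 3 adjoining matches to CACCC on the other strand. The Hba-a2 window was identical to that of Hba-a1 at all 107 aligned bases, whereas Hbb-bs and Hbb-bt differed at 25 of 108 aligned positions. A match to these letters is a description of the sequence and not a measured binding site.

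Depth recovered from the step size of the low values was 25.3 to 49.1 M reads per library, with a median of 46.1 M. Transcripts of the mitochondrial genome took 49.3 to 61.1% of all TPM, the deposited length-scaled and depth-scaled transcript level, in the 61 libraries, and 89.1% in Con week 4 replicate 2, which was left out for that reason. The left-out library had 0.239% of TPM in the 4 adult globins. The heart label was checked on 9 cardiomyocyte markers, which summed to 22298 to 39008 TPM. Serpina3n, which was 1665 to 2841 TPM in the other 6 CAC week 8 hearts, was 54.9 TPM in CAC week 8 replicate 3. The 8 macrophage markers summed to 266 TPM in that library, against 504 to 652 TPM in the other 6. It was also the library with the most globin, so the mean globin share and the calls of the 6 genes at week 8 are given with and without it.

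The 4 adult globins together took 0.0165 to 3.29% of all TPM, a 199-fold range over the 61 libraries with a median of 0.335%. In CAC hearts the share was 0.310, 0.149, 0.442, 0.386 and 0.393% at week 2, and 1.19, 0.663, 0.456, 0.312 and 0.378% at week 4. It was 0.0764, 0.235, 0.165, 0.0976 and 0.194% in CAC hearts at week 6, and 0.117, 0.148, 3.29, 0.0165, 0.661, 0.181 and 0.275% at week 8. The week 6 CAC libraries all lay below the week 4 CAC libraries, a difference that was not tested. NCAC hearts ran from 0.208 to 0.428% at week 2 and from 0.251 to 0.525% at week 4, then had 0.573, 1.86, 0.629, 0.405 and 0.201% at week 6 and 0.301, 0.394, 0.183, 0.285 and 0.680% at week 8. Con hearts ran from 0.307 to 0.563% at week 2 and from 0.268 to 0.536% at week 4, then had 0.239, 0.154, 0.196, 0.407 and 0.310% at week 6 and 0.335, 0.454, 0.441, 0.178 and 0.186% at week 8. Ordered by group median, NCAC week 6 was highest at 0.573% and CAC week 6 lowest at 0.165%, with CAC week 8 next to lowest at 0.181% and Con week 6 above it at 0.239%. Each group's range overlapped that of the next group in this order.

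**Figure D1:**
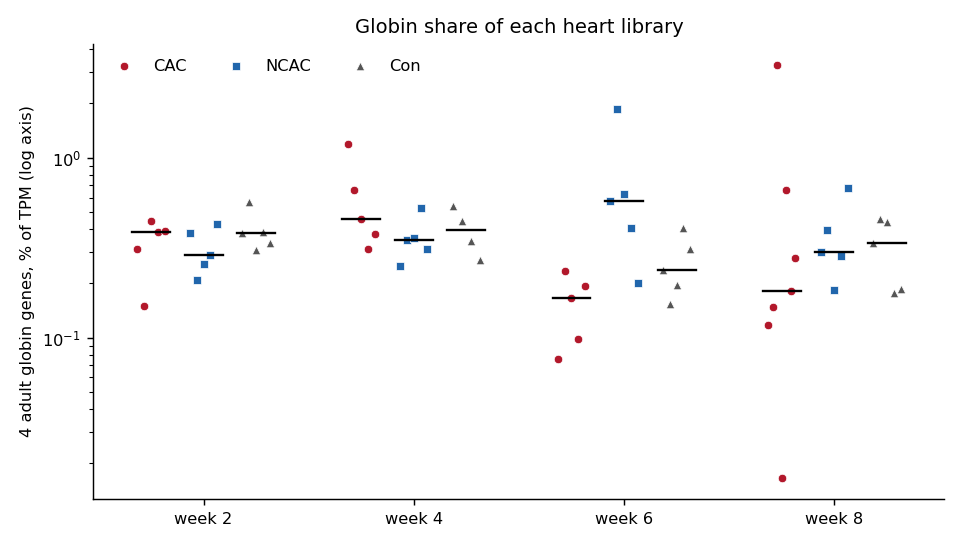
Share of all TPM taken by Hba-a1, Hba-a2, Hbb-bs and Hbb-bt in each of the 61 libraries, as a percent on a log axis, by week and arm, with bars at the group medians. CAC week 8 holds both the highest library, at 3.29%, and the lowest, at 0.0165%.

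Single libraries set the group means. CAC week 8 replicate 3 had 13385 TPM of Hbb-bs, which was 17.5 times the median of the other 6 CAC week 8 hearts. CAC week 8 replicate 4 had 71.1 TPM of Hbb-bs, 0.0743 times the median of the other 6. The mean globin share of CAC week 8 was 0.669 ± 1.17% (SD, n = 7) and 0.233 ± 0.226% (n = 6) without replicate 3. NCAC week 6 replicate 2 had 8887 TPM of Hbb-bs, 4.07 times the median of the other 4 in its group. The mean share of NCAC week 6 was 0.733 ± 0.649% (SD, n = 5), and 0.452 ± 0.192% (n = 4) without that library. CAC week 4 replicate 1, the third highest library in globin share, had 5461 TPM of Hbb-bs, and its group averaged 0.599 ± 0.354% (SD, n = 5) with it and 0.452 ± 0.152% (n = 4) without it.

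At week 6 the alpha-globin gene Hba-a1, both beta-globin genes and Alas2 were lower in CAC hearts than in NCAC hearts. These were 4 of the 6 tested genes, where 6.85% of all 12541 genes tested were lower in that comparison and 54.5% differed in either direction. The median log2 difference of the 6 was -1.91, against 0.19 over all genes. The tests were limma fits of log2(TPM + 1) over all 61 libraries, with Benjamini-Hochberg adjustment over all genes and an adjusted p under 0.05 as the threshold, and every fold change is on that scale.

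Hbb-bs, the more abundant adult beta chain, had 366, 1034, 801.5, 404 and 769 TPM in CAC hearts at week 6, against 2463, 8887, 2707, 1907 and 975 TPM in NCAC hearts. The highest CAC heart exceeded only the lowest NCAC heart, so the groups overlapped by that 1 library. Hbb-bs was lower by a log2 difference of -2.04 (SE 0.63, 95% interval -3.29 to -0.78, limma adjusted p = 0.0055), which is 4.10-fold. Hbb-bt, the less abundant beta chain, had 32.04, 133, 81.2, 65.5 and 153 TPM in CAC hearts and 462, 1123, 471.5, 183 and 100 TPM in NCAC hearts. Its log2 difference was -2.05 (SE 0.71, limma adjusted p = 0.0124), with 2 CAC hearts above the lowest NCAC heart.

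Hba-a1, an adult alpha chain, had 356, 1147, 731, 488 and 650 TPM in CAC hearts at week 6, against 2728, 8260, 1902, 1202 and 900 TPM in NCAC hearts. It was lower by a log2 difference of -1.79 (SE 0.66, limma adjusted p = 0.0194), and 1 CAC heart lay above the lowest NCAC heart. Hba-a2, the other alpha chain, had 10.3, 33.4, 37.6, 17.9 and 365 TPM in CAC hearts and 76.2, 282, 1207, 755 and 39.1 TPM in NCAC hearts. Its log2 difference of -2.58 had a wide interval of -5.09 to -0.07 and missed the threshold (limma adjusted p = 0.0748).

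Alas2 had 2.96, 8.72, 5.15, 3.53 and 7.36 TPM in CAC hearts at week 6, against 19.1, 66.5, 18.4, 12.9 and 7.395 TPM in NCAC hearts. It was lower by a log2 difference of -1.68 (SE 0.57, limma adjusted p = 0.0109), and only the lowest NCAC heart fell inside the CAC range. All 5 CAC hearts lay below the NCAC median for Hba-a1, Hbb-bs, Hbb-bt and Alas2. Bpgm had 9.94, 9.96, 9.14, 10.5 and 10.5 TPM in CAC hearts and 12.2, 17.3, 11.8, 9.92 and 9.601 TPM in NCAC hearts, with a log2 difference of -0.23 (limma adjusted p = 0.264). Without NCAC week 6 replicate 2, the count of lower genes was 1 of 6, Hbb-bs at -1.59 (limma adjusted p = 0.0324), while Hbb-bt, Alas2 and Hba-a1 had limma adjusted p of 0.0545, 0.0626 and 0.0939. Without CAC week 6 replicate 1, the lowest of its group, the count was 2 of 6, Hbb-bs and Alas2.

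**Figure D2:**
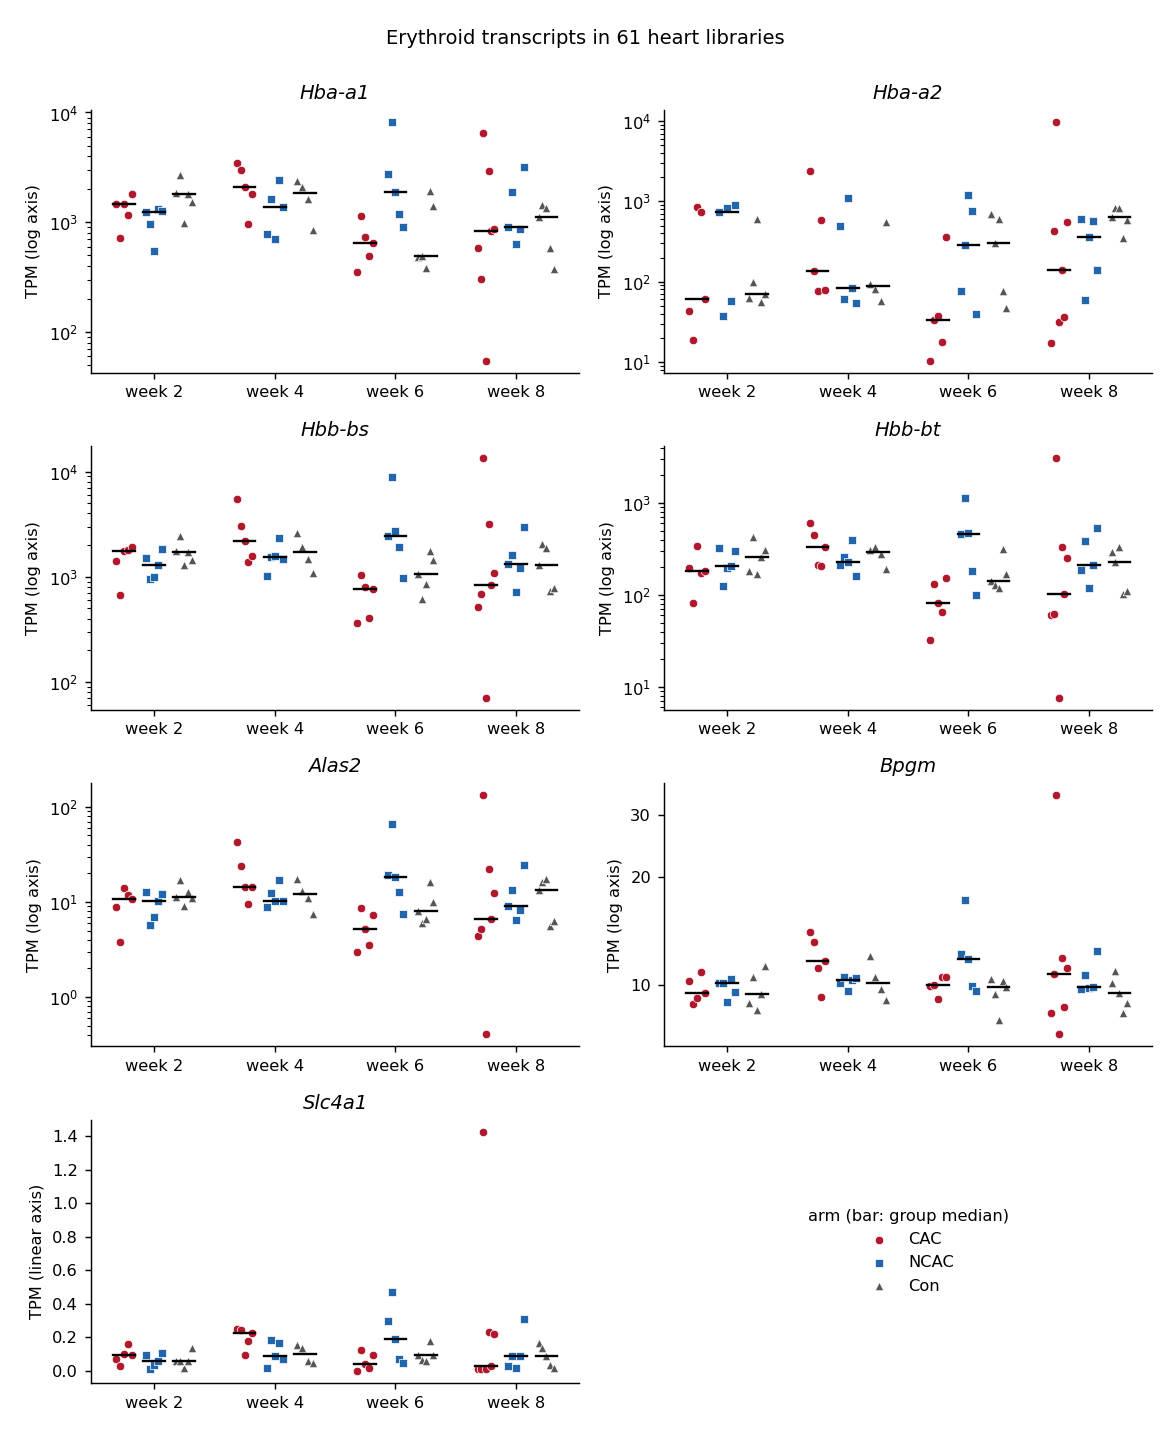
TPM of the 7 genes in each of the 61 libraries by week and arm, on log axes except for Slc4a1, with bars at the group medians. CAC week 8 replicate 3 is the highest library for Hba-a2, Hbb-bs, Hbb-bt, Alas2, Bpgm and Slc4a1, and NCAC week 6 replicate 2 is the highest for Hba-a1 at 8260 TPM.

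The arms compared at week 6 share samples, and the same CAC hearts did not pass the test against Con hearts. None of the 6 genes was called in CAC over Con at week 6, where 55.8% of all genes were, and 0 of 6 had an unadjusted p under 0.05 by limma. The spread in these tests was estimated over all 12 groups. With the compared groups only, Hba-a2 and Hbb-bt were called lower, each at a limma adjusted p of 0.0444. The share of all genes called in that fit is not given here. Con hearts had 1063, 615, 846, 1745 and 1459 TPM of Hbb-bs at week 6, all but 1 of them above 4 of the 5 CAC hearts. The log2 difference of CAC over Con was -0.78 for Hbb-bs, -0.996 for Hbb-bt, -0.28 for Hba-a1, -2.44 for Hba-a2 (95% interval -4.95 to 0.07), -0.67 for Alas2 and 0.06 for Bpgm. In NCAC over Con at week 6, 0 of 6 genes and 0% of all genes were called by limma, with 2 of 6 and 213 of all 12541 genes at an unadjusted p under 0.05. The 2 were Hba-a1, with a log2 difference of 1.502, and Hbb-bs, with 1.26, while Hba-a2 differed by 0.15, Hbb-bt by 1.06, Alas2 by 1.01 and Bpgm by 0.29. A p that misses the threshold does not show that the arms were alike.

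Markers of other blood cells did not move one way at week 6. The 10 platelet markers summed to 16.3 to 30.4 TPM in CAC hearts, 13.5 to 22.1 TPM in NCAC hearts and 9.91 to 17.1 TPM in Con hearts, and most of the sum was Pf4. The 13 neutrophil markers summed to 12.3 to 34.5 TPM in CAC hearts, 6.36 to 30.7 TPM in NCAC hearts and 8.89 to 12.98 TPM in Con hearts, with Elane at 0 in all 61 libraries and Ly6g at 0 in 34. The 7 B cell markers summed to 7.83 to 10.9 TPM in CAC hearts. Every NCAC and Con heart had a higher sum, at 14.1 to 24.2 TPM and 11.9 to 21.8 TPM. The 6 T cell markers, all under 1 TPM, summed to 0.741 to 1.14 TPM in CAC hearts. Every NCAC and Con heart had a lower T cell sum, at 0.264 to 0.585 TPM and 0.242 to 0.457 TPM. Of all single genes, 3.99% lay lower in every CAC heart than in any NCAC heart and 30.3% lay higher. Against Con hearts these shares were 3.29% and 36%. The part of blood content in the globin values was not tested.

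At week 8 none of the 6 genes was called in CAC over Con, where 60.8% of all genes were, or in CAC over NCAC, where 66.1% were, and 0 of 6 had an unadjusted p under 0.05 by limma in either. Hbb-bs had 511, 687, 13385, 71.1, 3204, 839 and 1076 TPM in CAC hearts, against 1316, 1609, 716, 1207 and 2943 TPM in NCAC hearts and 1292, 2050, 1888, 740.5 and 784 TPM in Con hearts. The CAC hearts extended both above and below the other arms, and 3 of the 7 lay below every NCAC and Con heart. The log2 difference was -0.31 over Con (95% interval -1.48 to 0.85) and -0.49 over NCAC.

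Alas2 had 4.41, 5.18, 132.9, 0.407, 22.3, 6.66 and 12.4 TPM in CAC hearts at week 8, against 9.004, 13.3, 6.51, 8.25 and 24.2 TPM in NCAC hearts and 13.4, 16.0, 17.2, 5.58 and 6.27 TPM in Con hearts. Its log2 difference was -0.14 over Con and -0.18 over NCAC, and the same 2 CAC libraries stood at the ends of the range as for Hbb-bs. Hba-a1 had 579, 301, 6537, 54.7, 2930, 828.9 and 874 TPM in CAC hearts, 905, 1891, 630, 860 and 3179 TPM in NCAC hearts and 1122, 1432, 1349, 586.5 and 374 TPM in Con hearts. Hbb-bt differed by -0.48 over Con and -0.86 over NCAC, Hba-a1 by -0.20 and -0.72, and Hba-a2 by -1.75 and -0.45 on the log2 scale.

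Without CAC week 8 replicate 3, a choice made after its values were seen, 2 of 6 genes were lower in CAC over Con (9.98% of all genes were lower there with all libraries), namely Hba-a2 at -2.71 (limma adjusted p = 0.0267) and Hbb-bt at -1.23 (limma adjusted p = 0.0446). Against NCAC, 3 of 6 were then lower (8.76% of all genes were lower there with all libraries), namely Hbb-bt at -1.61 (limma adjusted p = 0.00822), Hba-a1 at -1.24 (limma adjusted p = 0.0477) and Hbb-bs at -1.11 (limma adjusted p = 0.0443). In the other direction, leaving out replicate 4, the lowest CAC library, put Hbb-bs at 0.32 over Con and at 0.14 over NCAC, neither called. The calls at week 8 thus changed with replicate 3 and the sign of Hbb-bs with replicate 4.

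**Figure D3:**
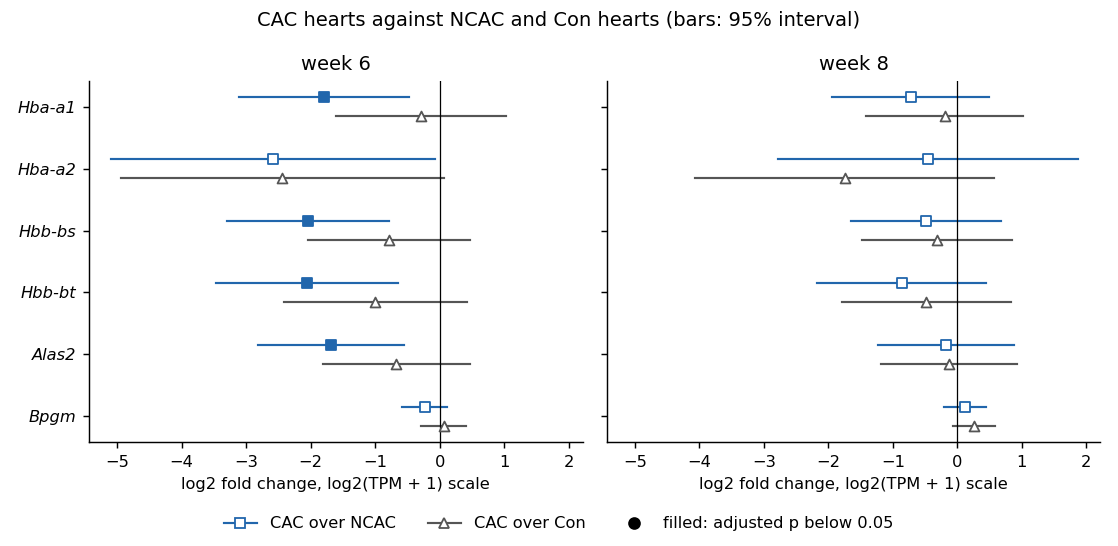
Log2 fold changes of the 6 tested genes at weeks 6 and 8, CAC over NCAC (blue squares) and CAC over Con (grey triangles), with 95% intervals, filled where the limma adjusted p is under 0.05. The filled points are Hba-a1, Hbb-bs, Hbb-bt and Alas2 in CAC over NCAC at week 6.

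No gene of the 6 passed in any other comparison by limma. At week 2 the shares of all genes called were 1.84% in CAC over Con, 0.59% in CAC over NCAC and 0% in NCAC over Con, and at week 4 they were 15%, 16.5% and 0%. NCAC over Con at week 8 called 0.71% of all genes. Between weeks 8 and 2, 52.7% of all genes were called in CAC hearts, 0% in NCAC hearts and 1.36% in Con hearts. The CAC over Con difference at week 8 was set against that at weeks 2, 4 and 6, and 26.5%, 7.69% and 0.152% of all genes passed. In these comparisons 0 of 6 genes had an unadjusted p under 0.05, except Con week 8 over week 2, where Hba-a2 did. At week 4, CAC over Con differed by 0.50 for Hbb-bs, 0.27 for Hbb-bt, 0.35 for Hba-a1, 1.05 for Hba-a2, 0.60 for Alas2 and 0.17 for Bpgm on the log2 scale.

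The alpha and beta chains kept a near-constant balance while their level varied. The summed alpha level (Hba-a1 and Hba-a2) ranged 190-fold and the summed beta level (Hbb-bs and Hbb-bt) 209-fold over the 61 libraries, whereas the ratio of alpha to beta TPM stayed between 0.847 and 1.19, with a median of 0.977. On the log2(TPM + 1) scale the correlation of the 2 sums over 61 libraries was 0.995, as a description in which both values of a point share a library and its total. Hbb-bt made up 8.05 to 19.2% of the beta sum, with a median of 12.8%.

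Within the alpha sum, the share of Hba-a2 fell in 3 separate ranges. It was 2.59 to 4.89% in 32 libraries, 35.98 to 41.7% in 22 and 58.6 to 61.2% in 7, and no library lay between. At weeks 2, 4 and 6 CAC groups had 3, 3 and 4 of 5 libraries in the lowest range and NCAC groups 2, 3 and 3 of 5. Con groups had 4 of 5, 3 of 4 and 2 of 5 there, so every arm held libraries of more than 1 range. CAC week 8 had 3 libraries in the lowest, 2 in the middle and 2 in the highest range, and NCAC week 8 had 2, 3 and 0. Con week 8 had 0, 4 and 1, and it was the only group with no library in the lowest range, against 4 of 5 at Con week 2.

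The alpha to beta ratio had a median of 0.934 in the lowest range of Hba-a2 share, 1.06 in the middle and 1.00 in the highest. Hba-a1 had a median of 1709 TPM in the libraries of the lowest range, 969 TPM in the middle and 480 TPM in the highest, and Hba-a2 had 59.2, 606 and 701 TPM. The alpha sum differed less, with medians of 1768, 1568 and 1181 TPM. In the lowest-globin library, CAC week 8 replicate 4, Hba-a2 was 31.8 TPM beside 54.7 TPM of Hba-a1, which put it in the middle range, and in the highest, replicate 3, it was 9874 TPM beside 6537 TPM, which put it in the highest range. A difference in Hba-a2 between arms holds both the level of alpha-globin and the range a library fell in, and the part of each was not tested. These ranges were read off the values and are not groups of the study.

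**Figure D4:**
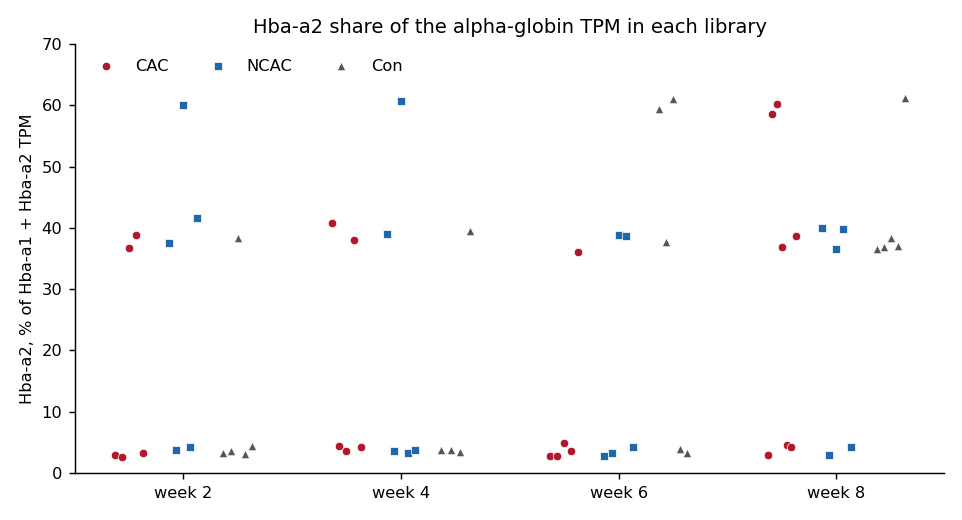
Share of Hba-a2 in the summed TPM of Hba-a1 and Hba-a2, in percent, in each of the 61 libraries by week and arm. The points fall in 3 separate ranges, 2.59 to 4.89%, 35.98 to 41.7% and 58.6 to 61.2%, and no Con week 8 library lies in the lowest.

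Alas2 stayed in near-fixed proportion to beta-globin. It had 4.97 to 9.33 TPM per 1000 TPM of the beta sum, a 1.88-fold range with a median of 6.61, although Alas2 itself ranged 326-fold, from 0.407 TPM in CAC week 8 replicate 4 to 132.9 TPM in replicate 3. Over the 61 libraries the correlation of Alas2 with Hbb-bs was 0.973 on the log2(TPM + 1) scale, and 0.950 without the 5 libraries highest and the 1 lowest in globin. Bpgm varied only 4.70-fold, from 7.26 to 34.1 TPM with a median of 10.1 TPM, and its correlation with Hbb-bs was 0.737, or 0.492 without those 6 libraries. The library with the least globin still had 7.26 TPM of Bpgm, against 0.407 TPM of Alas2.

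Slc4a1 reached 1 TPM in 1 library, CAC week 8 replicate 3, at 1.43 TPM or 161 recovered reads. The other 60 libraries had 0 to 0.470 TPM, at most 52 reads, and the median over all 61 was 10 reads. In a fit without the filter on low values it was called by limma in no comparison. Its correlation with Alas2 over the 61 libraries was 0.812 and with Bpgm 0.919, both from few reads. CAC week 8 replicate 3 was the highest library for Slc4a1, Alas2 and Bpgm, and these correlations are not given without it.

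Outside the 7 genes, Fam46c, Isg20, Ube2l6 and March2 were among those most like Hbb-bs over the 61 libraries, with correlations on the log2(TPM + 1) scale of 0.719, 0.712, 0.632 and 0.596. Mgl2, Rsad2, Rpa3, Ube2c and Yars2 followed at 0.547, 0.521, 0.515, 0.514 and 0.508. After group means were subtracted, Fam46c had 0.824, Ube2l6 0.781, Isg20 0.768 and Mkrn1 0.62, and Dnaja4, March2, Ints2, Sdpr and Rsad2 had 0.606 to 0.547. For Alas2, Fam46c, Isg20, Ube2l6 and March2 had 0.813, 0.784, 0.7296 and 0.553. The points of these correlations share a library and its total. Without the 5 libraries highest and the 1 lowest in globin, Fam46c had 0.588 with Hbb-bs and Mkrn1, after subtraction of group means, 0.294.

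**Figure D5:**
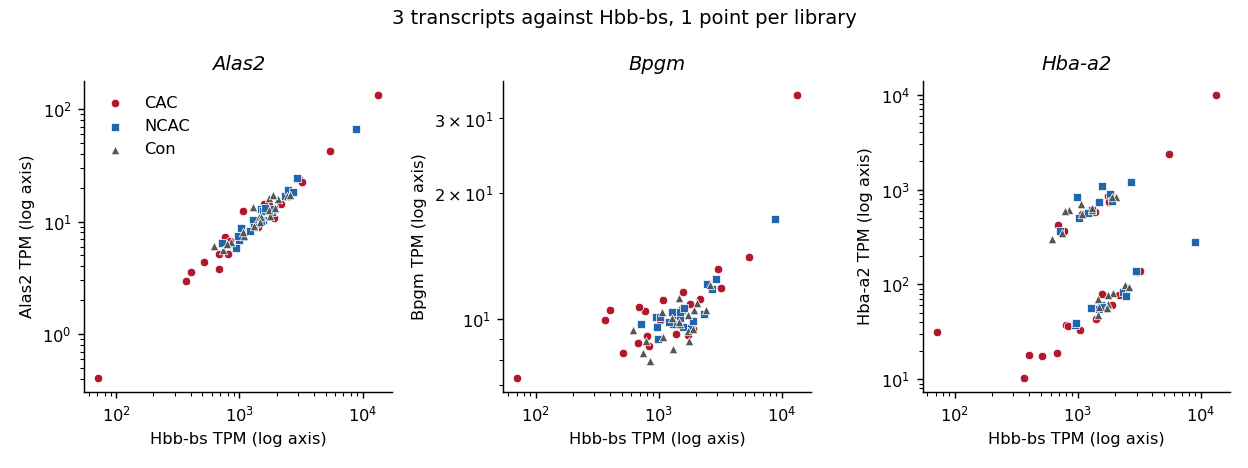
TPM of Alas2, Bpgm and Hba-a2 against TPM of Hbb-bs in the 61 libraries, 1 point per library, on log axes, with color and marker for the arm. Alas2 follows Hbb-bs along 1 line (correlation 0.973), Bpgm stays between 7.26 and 34.1 TPM (0.737), and Hba-a2 falls in separate bands (0.408).

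Transcripts that mark nucleated erythroid precursors were at or near 0. The erythroid transcription factors Gata1 and Klf1 reached at most 0.0775 and 0.315 TPM in any of the 61 libraries. Car1, Hemgn, Trim58 and Rhag reached at most 0.0373, 0.138, 0.0593 and 0.106 TPM. The embryonic globins Hba-x, Hbb-bh1 and Hbb-bh2 were at 0 in all 61 libraries, and Hbb-y reached 0.0653 TPM. Myoglobin (Mb), the oxygen-binding protein of muscle, was 10198 to 15132 TPM, a level that a haemoglobin gene reached in 1 library, Hbb-bs in CAC week 8 replicate 3. Mb was lower in CAC over Con at week 8, the 1 called of 2 tested other globins, by a log2 difference of -0.22.

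Genes of the surrounding pathways were set against the background of CAC over Con at week 8, where 50.8% of all genes were higher and 9.98% lower by limma with Benjamini-Hochberg adjustment. Of 18 tested genes of haem and iron handling, 14 were higher and 2 lower (77.8 and 11.1%), and 2 did not pass, with a median log2 difference of 0.53 against 0.19 over all genes. Haptoglobin (Hp), which binds free haemoglobin in plasma, averaged 31.1 ± 22.9 TPM in CAC hearts and 0.604 ± 0.291 TPM in Con hearts (SD, n = 7 and 5), a log2 difference of 3.90. Cd163, the macrophage receptor for the haptoglobin and haemoglobin complex, averaged 25.6 ± 8.32 TPM in CAC hearts and 3.35 ± 0.972 TPM in Con hearts, a log2 difference of 2.54. Transferrin (Trf) and Hfe, a regulator of iron uptake, were higher by 1.77 and 1.21.

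Other genes of that list, chosen after their values were seen, were Hmox1, which breaks haem down, and the iron hormone hepcidin (Hamp), each higher by 2.15. Hmox1 averaged 46.8 ± 32.7 TPM in CAC hearts and 7.48 ± 1.86 TPM in Con hearts, and Hamp 8.35 ± 6.98 TPM and 0.751 ± 1.01 TPM. The transferrin receptor (Tfrc) averaged 17.6 ± 20.996 TPM in CAC hearts and 33.4 ± 13.8 TPM in Con hearts, a log2 difference of -1.33. The iron exporter Slc40a1 averaged 2.08 ± 0.894 TPM in CAC hearts and 4.37 ± 1.18 TPM in Con hearts, a log2 difference of -0.83. Slc40a1 averaged 1.76 ± 0.434 TPM in NCAC hearts (SD, n = 5). Its log2 difference of NCAC over Con was larger, at -0.95, and missed the threshold (limma adjusted p = 0.0685). CAC week 8 replicate 3 again stood apart, with 63.3 TPM of Tfrc against 5.18 to 22.1 TPM in the other 6 CAC hearts. It had 2.58 TPM of Hp, 7.97 TPM of Cd163 and 7.02 TPM of Hmox1, and the CAC means of these genes include it. All 8 macrophage markers were also higher in CAC hearts at week 8, with sums of 266 to 652 TPM in CAC hearts and 129 to 183 TPM in Con hearts, and their part in the changes of these genes was not tested.

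By week, Trf passed the test in CAC over Con from week 2, by a log2 difference of 0.80, and Hfe and Hmox1 from week 4, by 0.86 and 1.15. Hp, Cd163 and Hamp passed from week 6, by 3.02, 2.04 and 1.71. Tfrc and Slc40a1 passed at week 8 only. The CAC over Con difference at week 8 was tested against that at weeks 2, 4 and 6 for every gene. The results of that test for these genes are not given here, so the weeks above do not show when a difference changed. In NCAC over Con at week 8 none of the 18 passed by limma, and 1, Slc40a1, had an unadjusted p under 0.05.

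The other lists held genes called in both directions or changed with the scaling in CAC over Con at week 8. Median-of-ratios scaling put the median of all genes at 0.01, against 0.19 as deposited. No list was tested against the rest of the genes, of which 50.8% were higher, 9.98% lower and 60.8% called in either direction. Of 12 tested genes of haem synthesis, 4 were higher and 4 lower (66.7% called) with a median of -0.07, among them Ppox at 0.29, Alad at -0.43 and Cpox at -0.49, which encode enzymes of that pathway. Under median-of-ratios scaling, and under scaling without mitochondrial and haemoglobin genes, 1 was higher and 7 were lower, and Ppox was not called. Of 11 genes of the red cell membrane and cytoskeleton, 4 were higher and 4 lower (72.7% called), among them Gypc at 0.78, Epb41 at 0.40, Tmod1 at -0.56 and Ank1 at -0.56, although the last 2 are also known from heart muscle. Median-of-ratios scaling gave 3 higher and 5 lower.

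Of 6 tested genes of the list of erythroid transcription factors, 3 were higher (50%, against 50.8% of all genes) and none lower. The 3 were Tal1 by 0.49, Nfe2l2 by 0.49 and Ldb1 by 0.32. Median-of-ratios scaling gave 2 higher and 2 lower and did not call Ldb1. Gata1, Klf1, Nfe2, Gfi1b and Bcl11a of that list reached 1 TPM in 0 libraries and were not tested, so the count does not cover them. Of 16 reticulocyte and late erythroid genes, 5 were higher and 3 lower (50% called). The 4 of smallest p were all higher, namely Mkrn1 at 0.59, Blvrb at 0.58, Bnip3l at 0.37 and Prdx2 at 0.27. Tfrc, also on this list, was 1 of the 3 lower, at -1.33. Median-of-ratios scaling gave 4 higher and 8 lower and did not call Prdx2. Of 14 hypoxia-response genes, 7 were higher and 2 lower (64.3% called, near the 60.8% of all genes), among them the prolyl hydroxylase gene Egln3 at -1.23, Ndrg1 at 1.24, Adm at 0.93 and Ldha at 0.61, and both scalings gave 5 and 5. For haem and iron handling, median-of-ratios scaling gave 10 higher and 4 lower of 18 tested, with a median of 0.33 against 0.01 over all genes. Scaling without mitochondrial and haemoglobin genes gave 11 higher and 3 lower of 20 tested, with a median of 0.29 against 0.03. The shares of all genes higher or lower under these scalings are not given here, for this or the other lists. Leaving out CAC week 8 replicate 3 gave 14 higher and 2 lower for haem and iron handling. In NCAC over Con at week 8 no gene of any of these lists was called by limma, and 0 to 2 genes of a list had an unadjusted p under 0.05.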

How the data were processed

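RNA was extracted with Trizol and libraries were made with a stranded kit for mRNA and read on a NovaSeq, per the labels' protocols, and mm10 is the build in the submitters' processing notes. How reads were aligned and counted, and with which annotation, is not given in the sources used here. A single table of TPM (transcript level scaled by length and library total) was deposited by the authors for 62 libraries, with no depths. When the step of the low values was taken as 1 read, 79.8% of values under 50 reads came within 0.05 of a whole read, so depth was recovered for description only. The protocol text speaks of a time point of another tumour that matches no sample here.

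Con week 4 replicate 2 was left out. The filter kept the 12541 genes that reached 1 TPM in 5 or more libraries. They were tested on log2(TPM + 1) with limma 3.58.1 (R 4.3.3) across all 12 groups, with Benjamini-Hochberg adjustment over all genes of a comparison and a threshold of 0.05. The fit was run on simulated normal values, with the same spread of a gene in every group and no outlying libraries. That run does not show how the fit treats outlying libraries such as those found here. Summaries used Python 3.11.15, pandas 2.3.3 and numpy 2.4.6. The genes and lists were chosen with earlier results of these data known. Named were the 7 genes, of each list the called genes in CAC over Con at week 8 (the 4 smallest p where more than 5 were called), and other genes most correlated with Hbb-bs or Alas2. A few results under this rule are not reported here. Alternatives were pseudocount 0.1, no filter or 5 TPM, 2 scalings, array quality weights, a replicate block, compared groups only, the left-out library put back, and each library left out. Same-numbered libraries were not paired by the labels or by their deviations.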

Additional observations from a re-analysis of the deposited data

Results flagged for a closer look

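Of 144 sets of values, each a measure within a group, 23 had a highest or lowest library whose gap to the nearest other exceeded Dixon's 95% critical value, and these came from 11 libraries. For normally distributed values chance would flag about 1 in 20 groups. Here the values were not log-scaled and the Hba-a2 share fell in separate ranges, so that rate need not hold. The measures of a library also depend on each other.

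CAC week 8 replicate 3 stood apart as the highest of its 7 libraries in 7 measures, with 13385 TPM of Hbb-bs, 3060 TPM of Hbb-bt, 9874 TPM of Hba-a2, 132.9 TPM of Alas2, 34.1 TPM of Bpgm, 1.43 TPM of Slc4a1 and a globin share of 3.29%. NCAC week 6 replicate 2 stood apart as the highest of its 5 in 4, with 8887 TPM of Hbb-bs, 8260 TPM of Hba-a1, 66.5 TPM of Alas2 and a globin share of 1.86%.

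Hba-a2 stood apart as the highest value in CAC week 4 replicate 1 at 2368 TPM, CAC week 6 replicate 5 at 365 TPM, Con week 2 replicate 3 at 611 TPM and Con week 4 replicate 5 at 555 TPM. In CAC week 6 replicate 5, Con week 2 replicate 3 and Con week 4 replicate 5 its share of the alpha sum, at 35.98, 38.4 and 39.4%, was also the outlying value, and the other libraries of each group lay in the lowest range of that share. Con week 8 replicate 5 was outlying at 61.2%, the only library of its group in the highest range. Con week 6 replicate 4 was highest in Hbb-bt at 319 TPM, and NCAC week 8 replicate 5 in Slc4a1 at 0.31 TPM. NCAC week 8 replicate 3 had the highest alpha to beta ratio of its group at 1.19, and CAC week 6 replicate 3 the lowest Alas2 per 1000 TPM of the beta sum at 5.84 TPM.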

How the results depend on the processing

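In CAC over NCAC at week 6, 4 or 5 genes were lower under the settings that kept the libraries, 3 were lower without the 3 libraries highest in globin (Hba-a1 was lost at -1.30), and leaving out 1 library gave 1 to 5. In the other comparisons the count of genes called was 0 except as follows. CAC over Con at week 4 had 1 higher (Bpgm at 0.52) with Con week 4 replicate 2 put back. CAC over Con at week 6 had 2 lower with the compared groups only, and 0 to 1 when 1 library was left out. CAC over Con at week 8 had 0 to 2 lower when 1 library was left out, and 2 without the 3 libraries highest in globin. CAC over NCAC at week 8 had 3 lower with array quality weights, 0 to 3 when 1 library was left out and 3 without the 3 highest. CAC week 8 over week 2 had 2 lower with array quality weights, 0 to 1 when 1 library was left out and 2 without the 3 highest. The causes were not tested.

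Turns of sign were counted in CAC over Con at weeks 4, 6 and 8 and in CAC over NCAC at weeks 6 and 8. They were also counted in NCAC over Con at week 6, and in no other comparison. The sign of 11 of these fold changes, none called as reported, turned in 25 fits in all. Bpgm in CAC over Con at week 6 was -0.16 under median-of-ratios scaling and -0.19 scaled without mitochondrial and haemoglobin genes. Bpgm in CAC over NCAC at week 8 was -0.11 and -0.015 under those scalings, -0.069 with array quality weights, -0.12 without CAC week 8 replicate 3, -0.052 without replicates 3 and 4 and -0.12 without the 3 highest. When 1 library was left out, CAC over Con gave -0.53 to 0.052 for Hba-a1 at week 6 and, at week 8, -0.75 to 0.35 for Alas2, -0.72 to 0.43 for Hba-a1, -1.23 to 0.18 for Hbb-bt and -0.94 to 0.32 for Hbb-bs. Likewise CAC over NCAC at week 8 gave -0.12 to 0.23 for Bpgm, -1.41 to 0.10 for Hba-a2, -1.11 to 0.14 for Hbb-bs and -0.79 to 0.30 for Alas2, and NCAC over Con at week 6 gave -0.44 to 0.79 for Hba-a2.

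Median-of-ratios scaling took the median log2 difference of all genes in CAC over NCAC at week 6 to 0.01, against 0.19 as deposited, and Hbb-bs to -2.26. The number of all genes called moved by over 1.5 times in several comparisons, most of the lowest with Con week 4 replicate 2 put back. The ranges that follow do not cover the fits in which further libraries were left out. In CAC over Con it was 231 at week 2 (0 to 1151 over the settings), 1883 at week 4 (1416 to 7424), 6997 at week 6 (3315 to 7701) and 7619 at week 8 (4374 to 8796). When 1 library was left out, the lowest number in CAC over Con at week 4 was 893. In CAC over NCAC it was 74 (2 to 1381), 2074 (621 to 2299), 6841 (3274 to 7501) and 8295 (5237 to 9630) at those weeks. It was 89 in NCAC over Con at week 8 (1 to 1060), 6607 in CAC week 8 over week 2 (3321 to 7872) and 170 in Con week 8 over week 2 (0 to 833). For the CAC over Con difference at week 8 against weeks 2, 4 and 6 it was 3329 (1149 to 6058), 965 (0 to 3738) and 19 (0 to 144). With the replicate block, 4 genes were lower in CAC over NCAC at week 6 (Hbb-bs, limma adjusted p = 0.00724) and 0 in the other comparisons. Same-numbered libraries had correlations of deviations of -0.28 to 0.41 over 58 pairs, with a median of 0.005.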
